A study of Rattus with 18 samples.

Results

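Glomerular gene expression on day 4 of anti-Thy1 nephritis was set against that on day 2, with 3 arrays a day. The members are the 6 of the series' 18 arrays whose titles give death on day 4 or day 2. All 6 were scanned on the same scan day. The comparison asks what differs in the glomerulus between these 2 times of the disease. Anti-Thy1 antibody was given to 30 SD rats of 200 g, and 6 rats received saline and served as the controls of day 0. The antibody groups were killed on days 1 to 5, and per the series' design 3 glomeruli were taken from each of 6 rats per time point. Every group compared here carries the antibody; the day 0 arrays are given beside the values as the background without it, and they were scanned on the other scan day. No label ties an array to particular rats, so a p-value measures the spread between arrays, which may be technical.

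Thy1 sits on the surface of rat mesangial cells, contractile cells between the glomerular capillaries that give them support. Antibody against it fixes complement on these cells and dissolves the mesangium. In the days that follow, leukocytes and platelets enter, surviving and immigrating mesangial cells divide, and matrix is laid down before the lesion resolves.

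Values are log2 processed signals minus the array's 75th percentile, so 0 is the signal of that percentile and 1 unit is a factor of 2. The 75th percentile of the 6 arrays lay between 318.1 and 452.4 intensity units, 26245 to 27273 of the 41012 probes read well above background, and no probe was saturated. The mean of a day rests on 3 arrays, while the spread behind each standard error and p was estimated over all 18 arrays of the 6 days. All 25 podocyte markers measured, including the slit diaphragm gene Nphs1, were well above background on all 6 arrays. So were 17 of 17 proximal tubule markers and 18 of 18 markers of the later nephron, and their part in the results was not tested. The log2 summed level of the proximal tubule markers ranged from 10.391 to 10.844 on day 2 and from 10.321 to 11.033 on day 4.

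The 3 arrays of day 4 were not alike. Replicates 2 and 3 correlated at r = 0.9884 over 23138 genes, which are not independent replicates, while replicate 1 correlated with them at 0.9711 and 0.9755. The arrays of day 2 correlated with each other between 0.9824 and 0.9886. Relative to the mean of day 0, the 22 macrophage markers measured averaged -0.01 on replicate 1 of day 4 but 2.05 and 1.76 on the others, and the 30 mitosis genes averaged 0.01 against 2.23 and 2.28. Replicate 1 also shared slide 4 with the 3 arrays of day 2, and replicates 2 and 3 were on slide 5. The called genes named below and some of the lists are therefore given with and without it. Within slide 4, the comparison is replicate 1 alone against the 3 arrays of day 2. With slide as a fixed block the fit takes the step from slide 4, and its values equal that difference.

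Of 23194 genes and transcripts tested, 23 passed an adjusted p of 0.05 between day 4 and day 2 (limma, Benjamini-Hochberg), which is 0.0992% of those tested. On day 4, 14 were higher (0.0604%) and 9 were lower (0.0388%). An unadjusted p under 0.05 was reached by 3225 genes, 13.9% of all, of which 1816 were higher and 1409 lower. The median change of all genes was 0.04. In all 23, the values of the 3 arrays of day 4 lay outside the range of day 2. Of all genes tested, 15.0% lay wholly above and 10.3% wholly below it. The 23 were chosen by their p in this comparison, so their lying apart is no separate result. No called gene had a missing value.

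The number of calls depended on single arrays. Without replicate 1 of day 4, 26 genes passed (20 higher, 6 lower), of which 16 were among the 23. Without replicate 2 or 3 of day 4, 9 passed each time. Without replicate 2 of day 2 none passed by limma (1669 at an unadjusted p under 0.05), without its replicate 3, 2 passed, and without its replicate 4, 24. The fit with slide as a fixed block called 22 genes, of which 4 (Sel1l2, Gimd1, B3galt2 and a transcript without a current symbol) were among the 23. The split into 14 higher and 9 lower moved to 12 and 12 with quantile normalization and to 14 and 62 with scaling to 12 reference genes. In the authors' table, fitted on days 0, 2 and 4 alone, it was 2 and 4. The main values fitted on those days alone gave 7 higher and 12 lower. Scaling to the reference genes moved the median of all genes by -0.164.

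Endothelial adhesion and vessel genes were among those that fell. Sele encodes E-selectin, which activated endothelium uses to slow leukocytes. It read -0.82, -0.75 and -1.52 on day 2 and -4.76, -6.37 and -3.16 on day 4. All 3 arrays of day 4 lay below day 2, and they spread to both sides of the day 0 range of -5.93 to -4.97. The change was -3.74 ± 0.67 (SE, n = 3 a day), a 13.3-fold fall on the measured signals, with a limma adjusted p of 0.0497. On day 4, 1 of the 3 arrays was well above background, so the size of the fall rests partly on signals near background. On day 0, 0 of 3 were, so the day 0 range is no measured level. Without replicate 1 of day 4 the change was again -3.74, with an adjusted p of 0.1.

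Lyve1 encodes a hyaluronan receptor of lymphatic endothelium that some macrophages also carry. It read 2.93, 2.81 and 2.12 on day 2 and 0.47, 0.80 and 1.01 on day 4, a 3.63-fold fall (-1.86 ± 0.26, adjusted p = 0.0116 in limma). Its day 2 values lay above and its day 4 values below those of day 0, 1.36 to 1.60. A second probe of Lyve1 gave -1.95. Without replicate 1 of day 4 it still passed (-1.71, adjusted p = 0.038).

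Angpt2, the angiopoietin that opposes Tie2 signalling and loosens vessels, rose. Its values were 0.51, -0.04 and 0.61 on day 2 and 1.74, 3.72 and 3.14 on day 4, all above the day 0 range of 0.55 to 0.99. The change was 2.51 ± 0.43, or 5.68-fold (limma adjusted p = 0.0422). Its 3 probes gave between 2.29 and 2.73. Replicate 1 was the lowest array of day 4. Within slide 4 the difference was 1.38, and without that array the change was 3.07 (adjusted p = 0.0108).

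Kdr, the main VEGF receptor of glomerular endothelium, missed the threshold. It read 7.60, 7.18 and 6.69 on day 2 and 5.48, 6.13 and 6.11 on day 4, without overlap, and the change was -1.25 ± 0.23 (limma adjusted p = 0.0563). Over the endothelial list, 21 of 23 markers were measured, none passed, 18 had a negative change and the median was -0.47, beside 0.04 over all genes. The transcription factor Erg (-1.06 ± 0.27), Pecam1, the junctional adhesion molecule CD31 (-0.96 ± 0.35), and Ehd3, a marker of glomerular endothelium (-1.06 ± 0.39), each lay lower on all 3 arrays of day 4, with limma adjusted p of 0.136, 0.257 and 0.257. Kdr, Erg, Pecam1 and Ehd3 were the 4 of the 21 markers whose day 4 values all lay below day 2, as in 10.3% of all genes. In 1 marker all day 4 values lay above day 2, as in 15.0% of all genes. The list's median was -0.20 without replicate 1 of day 4 and -0.92 within slide 4. As these are whole glomeruli, fewer cells of a type and less RNA per cell cannot be told apart.

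**Figure D1:**
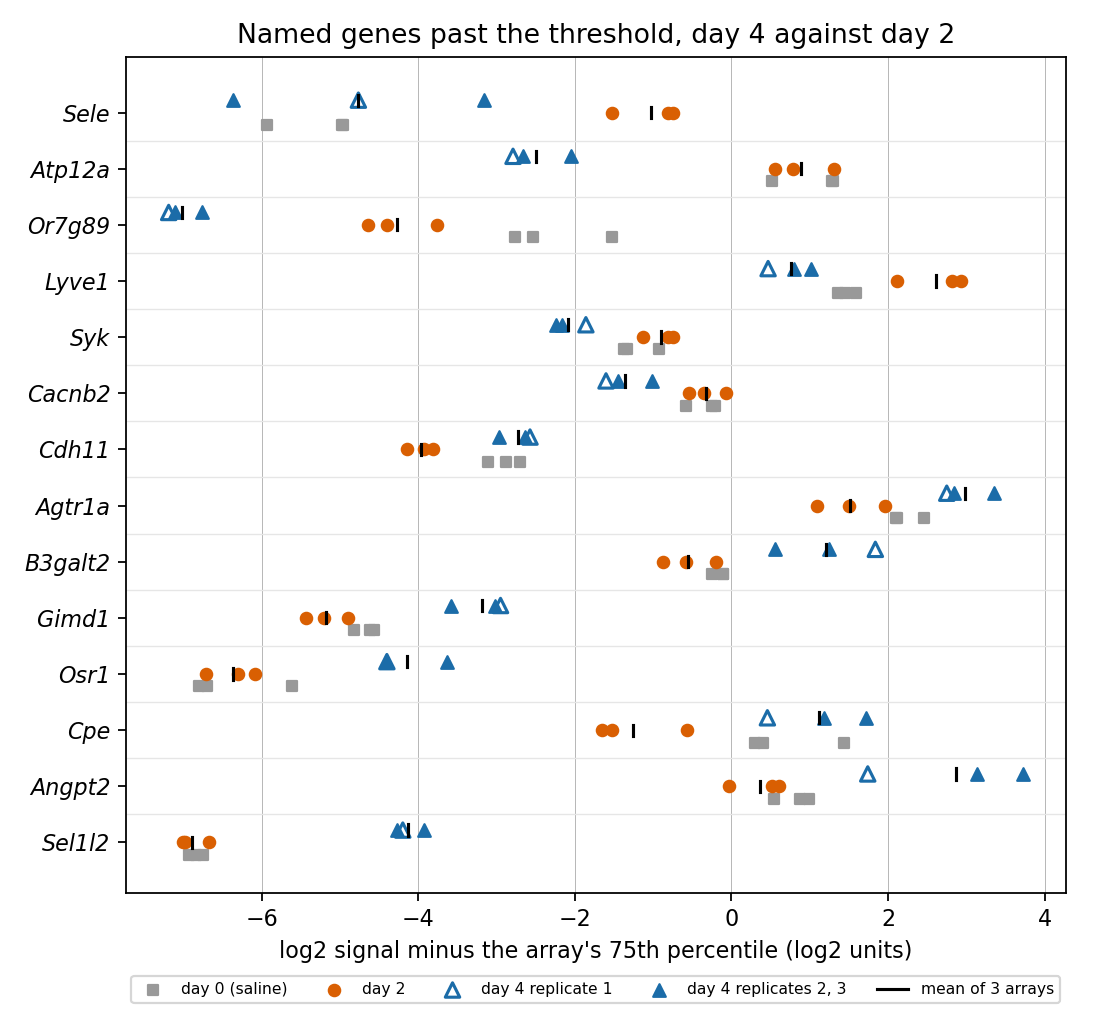
Log2 signal relative to the array's 75th percentile (x axis) of the 14 genes with a current symbol past the threshold, on the 3 arrays each of day 0, day 2 and day 4, with day 4 replicate 1 as an open triangle and the mean of each antibody day as a bar. The day 2 and day 4 points of every gene shown lie apart, and replicate 1 is the lowest day 4 point of Angpt2 and Cpe and the highest of B3galt2.

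Genes of mesangial and perivascular cells lay higher on day 4. Agtr1a encodes the angiotensin II receptor through which mesangial cells contract. It read 1.09, 1.51 and 1.96 on day 2 and 2.75, 3.36 and 2.84 on day 4. The day 0 values (2.10 to 2.46) lay between them. It rose by 1.46 ± 0.23, or 2.76-fold (limma adjusted p = 0.0319), and still passed without replicate 1 of day 4 (1.58, adjusted p = 0.0368).

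Its close relative Agtr1b read -4.16, -4.46 and -3.45 on day 2 and -2.58, -0.67 and -1.65 on day 4. The days did not overlap, but the change of 2.39 ± 0.44 missed the threshold (limma adjusted p = 0.0563); without replicate 1 of day 4 it was 2.86 (adjusted p = 0.0198). Since the receptors are near-identical proteins, their probes are shown, by the first 30 of 60 bases, 5′ to 3′ in lower case, at the files' positions on build rn4. The probe of Agtr1a lies at chr17:40629499-40629558 and that of Agtr1b at chr2:105504546-105504605, both on the minus strand.
Agtr1a: acccaagtccacacatcaaagtcacactgc
Agtr1b: aaattcagaagaacacgccaagaaatgatg
The longest run of bases that the full probes share is 6 long. Neither probe was set against the other gene's transcript, so whether a probe also reads the other gene was not tested.

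Of the 15 mesangial markers, 14 were measured and all 14 had a positive change, with a median of 1.22 beside 0.04 over all genes; 1 passed (Agtr1a), and 10 had an unadjusted p under 0.05. In 9 of them all day 4 values lay above day 2, against 15.0% of all genes. Thy1, the antibody's target, read -1.63, -2.51 and -1.64 on day 2 and -0.89, 1.55 and 0.17 on day 4. These did not overlap, but the spread on day 4 was wide and the change of 2.20 ± 0.59 did not pass (limma adjusted p = 0.155). The day 0 values of Thy1 were -0.70 to 0.46.

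Fhl2, a LIM domain protein tied to the actin cytoskeleton, read -1.36, -1.56 and -0.36 on day 2 and 0.29, 2.21 and 1.61 on day 4 (2.47 ± 0.53, limma adjusted p = 0.0899; 3.00 and 0.0429 without replicate 1 of day 4). The soluble guanylate cyclase subunits that receive nitric oxide, Gucy1a1 and Gucy1b1, gave 1.94 ± 0.62 and 2.36 ± 0.64 and did not pass (limma adjusted p = 0.204 and 0.159). Pdgfrb, the PDGF receptor of mesangial cells, read 0.53, 0.34 and 0.93 on day 2 and 1.09, 2.30 and 2.18 on day 4 (1.26 ± 0.39, limma adjusted p = 0.198). Ednra, the endothelin receptor of contractile cells, read -2.14, -2.40 and -1.77, then -1.22, -0.64 and -0.91 (1.18 ± 0.28, limma adjusted p = 0.113); its 2 probes gave 0.36 and 1.18.

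Itga8, the mesangial integrin chain, was the marker that stayed farthest below day 0. It read -3.49, -4.15 and -2.71 on day 2 and -3.17, -2.38 and -2.95 on day 4, against -1.84 to -0.23 on day 0. The days overlapped and the change was 0.61 ± 0.48 (limma adjusted p = 0.608). The median of the list was 0.73 within slide 4 and 1.46 without replicate 1 of day 4, and it kept its sign under all 22 other settings (0.73 to 1.46).

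**Figure D2:**
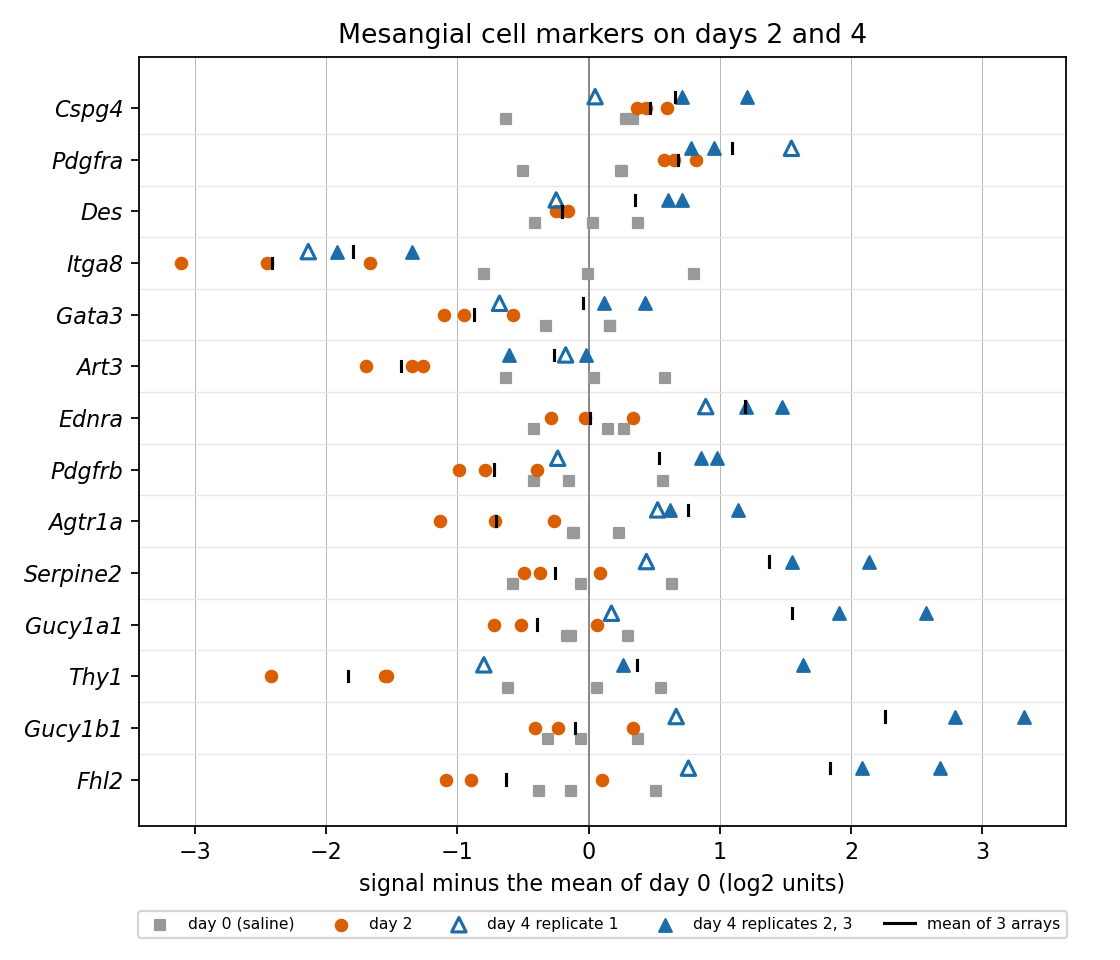
Signal of the 14 mesangial markers measured, as log2 difference from the mean of day 0 (x axis), on each array of days 0, 2 and 4; bars are means of 3 arrays and the open triangle is day 4 replicate 1. Day 4 lies to the right of day 2 without overlap in 9 of the 14 genes, and Itga8 stays left of day 0 on both days.

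Other named genes that rose had more varied roles. Cpe, the carboxypeptidase that trims prohormones, read -1.53, -1.66 and -0.57 on day 2 and 0.46, 1.72 and 1.19 on day 4, where it overlapped day 0 (0.31 to 1.44). It rose 5.18-fold (2.37 ± 0.38, limma adjusted p = 0.0319; 2.71 and 0.0185 without replicate 1 of day 4). Cdh11, a cadherin of mesenchymal cells, read -3.92, -4.15 and -3.81 and then -2.57, -2.97 and -2.63, a 2.35-fold rise (1.23 ± 0.21, limma adjusted p = 0.0357). Its 3 probes gave between 1.23 and 1.62, and without replicate 1 of day 4 Cdh11 no longer passed (1.16, adjusted p = 0.1).

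Osr1, a zinc finger factor of early kidney development, stayed short of well above background on every array of day 2 and was at least 1.5-fold higher on day 4 (limma adjusted p = 0.0319; 0.038 without replicate 1 of day 4), where it read -4.40, -3.64 and -4.41. B3galt2, a galactosyltransferase, read -0.88, -0.58 and -0.19 on day 2 and 1.84, 1.24 and 0.56 on day 4, a 3.4-fold rise (1.76 ± 0.28, limma adjusted p = 0.0319). It was highest on replicate 1 of day 4, and without that array it no longer passed (1.45, adjusted p = 0.0596). A bound such as that of Osr1 sets the brighter day's mean against the dim day's mean of, per array, the lowest signal well above background or the probe's own value, whichever is higher.

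Some risen transcripts, like Osr1, were well above background on all arrays of day 4 but on none of day 2. A probe was tested if well above background on all 3 arrays of some day. Of days 0, 2, 3, 4 and 5, only day 4 met this for Osr1, Sel1l2 and the transcripts BQ208080 and TC609462. Their entry thus used values that the test also used, and their adjusted p is no separate support. Over the 22 other settings the log2 change ranged from 0.35 to 2.35 for Osr1 and 0.51 to 2.93 for Sel1l2. It ranged from 0.76 to 3.76 for BQ208080 and from 0.47 to 2.80 for TC609462. Sel1l2 read -4.20, -3.93 and -4.28 on day 4, against -6.67 to -7.00 on day 2 (at least 1.52-fold higher, limma adjusted p = 0.0116). The transcript BQ208080, which has no current symbol, read -2.99, -3.06 and -3.23 on day 4 and -5.16 to -7.11 on day 2 (at least 3.13-fold higher, adjusted p = 0.00664). Without replicate 1 of day 4 the adjusted p was 0.0278 for Sel1l2 and 0.0185 for BQ208080. On days 0, 3 and 5 Sel1l2 and BQ208080 were well above background on 0 of 3 arrays each. On day 1, of the other scan day, Sel1l2 read -4.45, -5.76 and -6.79, so its first array lay near the values of day 4. BQ208080 read -7.02, -5.93 and -6.95 there. Since their names say little about what the probes read, the first 30 of 60 bases are shown, 5′ to 3′, with rn4 positions chr3:128433607-128433666 (minus strand) and chr4:9731044-9731103 (plus strand).
Sel1l2: caccattggaccatactgggacttattagt
BQ208080: tacataacgaaagactttgtatttacatca
Gimd1 was also dim on day 2 and read -2.95, -3.58 and -3.02 on day 4 (at least 2.94-fold higher, limma adjusted p = 0.0116; 0.0368 without replicate 1 of day 4).

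Syk, the tyrosine kinase that Fc receptors and integrins of leukocytes signal through, also fell. It read -0.75, -0.81 and -1.13 on day 2 and -1.86, -2.24 and -2.16 on day 4, below the day 0 range of -1.37 to -0.92. The fall was 2.29-fold (-1.19 ± 0.17, limma adjusted p = 0.0184), and -1.31 without replicate 1 of day 4 (adjusted p = 0.0185). From day 3 to day 5 it changed by -0.09 ± 0.17.

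Atp12a, the catalytic subunit of the non-gastric proton and potassium pump, read 0.79, 1.31 and 0.56 on day 2, which overlapped day 0 (0.52 to 1.29), and -2.79, -2.05 and -2.67 on day 4. It fell 10.5-fold (-3.39 ± 0.57, limma adjusted p = 0.0357; 0.0938 without replicate 1 of day 4, with a change of -3.24). The groups lay apart, and on day 3 it read -2.08, 0.62 and 0.10. Cacnb2, a calcium channel subunit, fell 2.05-fold (-1.04 ± 0.18, limma adjusted p = 0.0422), and without replicate 1 of day 4 it no longer passed (-0.92, adjusted p = 0.115). Or7g89, an olfactory receptor gene, was lower on both days than on day 0 and not well above background on day 4, at least 1.53-fold below day 2 (limma adjusted p = 0.00664; 0.0185 without replicate 1 of day 4).

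Of the 9 genes that fell, 8 lay below the day 0 range on all arrays of day 4, as did 29.98% of all genes, and 5 had lain above it on day 2, as did 27.97% of all genes. Of the 14 that rose, 8 lay above the day 0 range on day 4 (28.80% of all genes), and 8 had lain below it on day 2 (29.86%). These genes were chosen by their p between day 4 and day 2, so their shares beside those of all genes are no separate result. Gimd1 and the transcript BC086439 count as below day 0 on day 2. They were well above background on 0 arrays of day 2 and on 1 and 0 arrays of day 0. Or7g89 and the transcript TC575886 were well above background on 0 arrays of day 4. The day 0 arrays belong to the other scan day. Besides the 14 with a current symbol, 9 called transcripts had none, 6 higher and 3 lower.

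The places that the threshold left were filled by the genes with the smallest p. These were Tnmd, a membrane protein of tendon and ligament (2.65 ± 0.48), Ppard, a fatty acid receptor (1.04 ± 0.19), Agtr1b, and Spon2, a secreted matrix protein (0.85 ± 0.16), on the higher side, with limma adjusted p between 0.0563 and 0.0599. On the lower side stood Kdr, Gk5 (-1.53 ± 0.28), the linker histone gene H1f0 (-0.89 ± 0.17), Aldh3b1 (-1.06 ± 0.21), Camk1d (-1.17 ± 0.23) and Gdap1 (-1.71 ± 0.34), with limma adjusted p between 0.0563 and 0.0767. All 10 lay apart between the days; of all genes, 15.0% lay wholly above and 10.3% wholly below. The 10 were chosen by their p in this comparison, so their lying apart is no separate result.

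Leaving out replicate 1 of day 4 added 10 genes that had not passed with all 6 arrays. Cxcl13, the chemokine that draws B cells, read -0.61, -0.91 and 0.26 on day 2 and 0.92, 4.46 and 2.94 on day 4. It changed by 3.19 ± 0.63 with all arrays (limma adjusted p = 0.0708) and by 4.12 ± 0.47, or 17.4-fold, without that array (adjusted p = 0.00925). Mgp, a matrix inhibitor of calcification, read 6.76, 6.50 and 7.35 on day 2 and 8.14, 9.62 and 9.20 on day 4 (2.12 with all arrays, adjusted p = 0.0895; 2.54 and 0.0451 without). The tight junction gene Cldn9, the neurexophilin Nxph1, the homeobox factor Phox2a and C1qtnf5 were the other named ones besides Fhl2 and Agtr1b, with changes of 3.76, 3.93, 3.78 and 2.56 without that array; these and Mgp were named after their values were seen.

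Fibrous matrix genes showed the same array pattern. Of 35 genes of interstitial matrix and collagen cross-linking, 32 were measured, 28 had a positive change, none passed, 13 had an unadjusted p under 0.05 and the median was 0.76. In 12, all day 4 values lay above day 2, against 15.0% of all genes. Lox, the enzyme that cross-links collagen and elastin, read -2.92, -2.78 and -2.08 on day 2 and -0.79, 1.54 and 0.35 on day 4, above the day 0 range of -2.33 to -1.29 (2.96 ± 0.66, limma adjusted p = 0.0994). Its 2 probes gave 2.79 and 2.96. P4ha1, which hydroxylates collagen prolines, read 0.06, 0.42 and 0.43 and then 1.23, 1.20 and 0.88 (0.80 ± 0.18, limma adjusted p = 0.11), and replicate 1 of day 4 was the highest.

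Col1a1 read 3.49, 2.80 and 2.83 on day 2 and 1.57, 4.43 and 5.75 on day 4. Replicate 1 lay below every array of day 2 and replicates 2 and 3 above, so that the days overlapped and the change was 0.88 ± 0.99 (limma adjusted p = 0.747). Col3a1 did not overlap: -0.29, -0.68 and -0.55, then 0.92, 2.78 and 2.23 (2.48 ± 0.81, limma adjusted p = 0.217). Fibronectin, Fn1, read 2.35, 2.42 and 2.59, then 2.59, 4.25 and 3.93 (1.14 ± 0.47, limma adjusted p = 0.302). The median of the list was 0.21 within slide 4 and 1.04 without replicate 1 of day 4. Basement membrane genes showed little: 14 of 17 were measured, none passed, the median was 0.03 and its sign turned under some settings. The median of a nearby list, matrix proteases and inhibitors, was 0.20 over 14 of 18 genes, again with none past the threshold.

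Contractile genes of smooth muscle and myofibroblasts were split by array as well. Of 12 genes 9 were measured (Acta2, Cnn1 and Lmod1 were not tested), 8 had a positive change, none passed, and the median was 0.67. Tagln, or transgelin, read 2.30, 2.10 and 2.36 on day 2 and 1.10, 4.56 and 4.41 on day 4 (1.10 ± 0.88, limma adjusted p = 0.613). Myl9, a myosin light chain, read 4.94, 5.02 and 5.01, then 4.55, 7.42 and 7.16 (1.39 ± 0.71, limma adjusted p = 0.406). In both, replicate 1 lay below every array of day 2 and the other day 4 arrays above. The median was 0.04 within slide 4 and 0.99 without replicate 1.

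**Figure D3:**
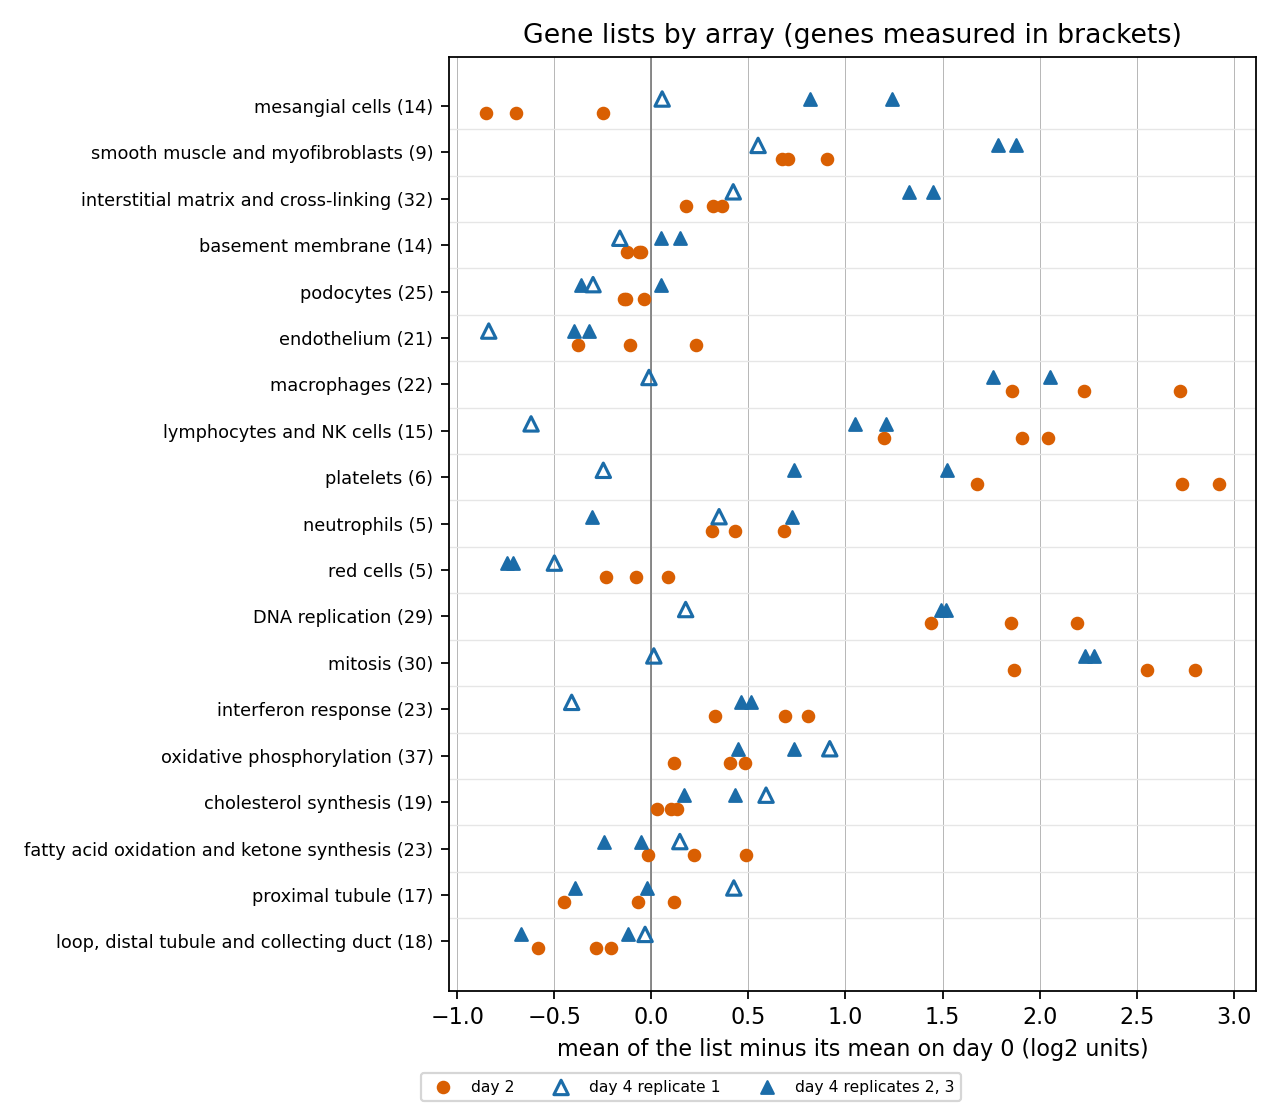
Mean of each gene list minus its mean on day 0 (x axis, log2 units) for the 3 arrays of day 2, day 4 replicate 1 (open triangle) and day 4 replicates 2 and 3. Macrophage, lymphocyte, platelet, DNA replication and mitosis genes lie lowest on replicate 1 of day 4, contractile and matrix genes lie above day 2 on replicates 2 and 3, and the tubule lists overlap between the days.

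Macrophage, lymphocyte and platelet markers lay lower on day 4, and most so on replicate 1. Of 24 macrophage markers 22 were measured, 20 had a negative change, none passed, and the median was -1.16. Gpnmb, a glycoprotein of activated macrophages, read 0.94, 2.62 and 1.21 on day 2 and -3.64, 0.15 and -0.11 on day 4 (-2.79 ± 0.90, limma adjusted p = 0.211). The lysosomal protein Cd68 read 2.88, 3.07 and 2.03, then 0.05, 1.77 and 1.77 (-1.47 ± 0.56, limma adjusted p = 0.273). Neither overlapped between the days. Trem2, a lipid receptor of macrophages, went the other way: it read -1.24, -1.41 and -1.07, then -1.24, 2.15 and 0.82, with a change of 1.81 ± 0.98 (limma adjusted p = 0.438; named after its values were seen). The log2 summed level of the list ranged from 7.796 to 8.606 on day 2 and from 5.868 to 8.135 on day 4. The list's median was -0.53 without replicate 1 of day 4 and -2.52 within slide 4.

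All 6 platelet genes measured, of 9 listed, had an unadjusted p under 0.05 and a negative change, with a median of -1.79; none passed. Pf4, platelet factor 4, read 4.83, 5.11 and 3.42 on day 2 and 0.54, 2.55 and 2.94 on day 4 (-2.44 ± 0.65, limma adjusted p = 0.155). Treml1, a receptor of platelet granules, read 1.36, 1.49 and 0.21, then -2.35, -1.20 and -0.58 (-2.39 ± 0.53, limma adjusted p = 0.0989). In 5 of the 6 the days did not overlap, against 10.3% of all genes on that side. The median was -1.23 without replicate 1 of day 4, and -2.90 within slide 4. The log2 summed level ranged from 4.029 to 5.519 on day 2, from 1.661 to 3.632 on day 4 and from 1.107 to 2.613 on day 0.

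Of 20 lymphocyte and NK cell genes 15 were measured, all 15 had a negative change, 6 with an unadjusted p under 0.05, and none passed (median -1.08; -0.50 without replicate 1 of day 4). Il2rb, a chain of the receptor for interleukins 2 and 15, read -1.25, -1.33 and -2.28 on day 2 and -4.19, -2.66 and -2.72 on day 4 (-1.57 ± 0.50, limma adjusted p = 0.211). Of 8 red cell genes 5 were measured; Alas2, the heme enzyme of erythroid cells, read 1.99, 2.22 and 1.75, then 0.97, 0.88 and 0.98 (-1.04 ± 0.38, limma adjusted p = 0.252). Here the arrays of day 4 were alike, and the list's median was -0.72 with and -0.78 without replicate 1. Neutrophil genes, of which 5 of 12 were measured, had a median of -0.07 and changed sign with the settings.

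Of 27 genes of chemokines, cytokines and adhesion molecules 21 were measured, and Sele was the one past the threshold. Ccl20, which draws cells that carry CCR6, read -1.74, -0.32 and -0.88 on day 2 and 1.52, 0.45 and 0.75 on day 4 (1.89 ± 0.57, limma adjusted p = 0.187), against -4.24 to -3.61 on day 0. Cxcl12, made by stromal cells, read 2.12, 2.60 and 2.68, then 3.56, 3.89 and 3.17 (1.07 ± 0.31, limma adjusted p = 0.175). Il1b read 0.89, 1.24 and 0.72, then -0.45, -0.15 and 0.20 (-1.08 ± 0.33, limma adjusted p = 0.193). Ccl2, the monocyte chemokine, overlapped (1.77, 1.74 and 2.41, then 2.53, 0.96 and 0.75; -0.56 ± 0.47, limma adjusted p = 0.642), and was highest on replicate 1 of day 4.

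Interferon response genes lay slightly lower: 23 of 24 were measured, 22 had a negative change, none passed, and the median was -0.38 (-0.08 without replicate 1 of day 4). Gbp5, an interferon-induced GTPase, was the one with the smallest p (-1.52 ± 0.36, limma adjusted p = 0.113). Of 20 complement genes 17 were measured with a median of -0.28 and none past the threshold; Cfp, or properdin, read 0.89, 1.33 and 0.22, then -2.13, -0.46 and -0.53 (-1.85 ± 0.51, limma adjusted p = 0.159). MHC class II genes had a median of 0.15, with 6 of 8 measured, none past the threshold and a sign that turned under some settings.

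Cell cycle genes separated the arrays of day 4 more than the days. Of 32 mitosis genes 30 were measured, none passed, 2 had an unadjusted p under 0.05 and the median was -0.98; it was -0.27 without replicate 1 of day 4 and -2.58 within slide 4. Mki67, the proliferation marker, read 3.18, 2.79 and 1.87 on day 2 and 0.04, 1.77 and 2.03 on day 4 (-1.33 ± 0.68, limma adjusted p = 0.408). Ccnb2, cyclin B2, read 0.87, 0.59 and -0.09, then -2.71, 0.34 and 0.33 (-1.14 ± 0.79, limma adjusted p = 0.559). In both, replicates 2 and 3 of day 4 overlapped day 2, and replicate 1 lay near day 0 (-0.71 to -0.00 for Mki67 and -3.24 to -2.57 for Ccnb2).

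Of 30 DNA replication genes 29 were measured, none passed, 12 had an unadjusted p under 0.05 with a negative change, and the median was -0.77. All day 4 values lay below day 2 in 14 of the 29, against 10.3% of all genes. Cdt1, which licenses replication origins, read -1.70, -2.24 and -2.73 on day 2 and -5.84, -3.66 and -3.51 on day 4 (-2.12 ± 0.56, limma adjusted p = 0.151). The helicase subunit Mcm7 read 0.35, -0.11 and -0.53, then -1.42, -0.81 and -0.88 (-0.94 ± 0.26, limma adjusted p = 0.163). The median was -0.33 without replicate 1 of day 4 and -1.40 within slide 4. Of 18 genes of the G1/S transition 16 were measured (median -0.34); E2f1 changed by -1.37 ± 0.47 and Myc by -1.02 ± 0.37, with limma adjusted p of 0.231 and 0.255.

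Growth factor and BMP genes missed the threshold. Grem1, a secreted antagonist of BMPs, read 0.79, 1.19 and 1.18 on day 2 and 3.33, 2.11 and 2.54 on day 4 (1.60 ± 0.48, limma adjusted p = 0.185). Replicate 1 was its highest array of day 4. Bmp6 lay lower (-0.90, -0.92 and -1.86, then -2.78, -2.24 and -2.77; -1.37 ± 0.29, limma adjusted p = 0.0897).

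Endothelin 1, Edn1, read -0.13, 0.03 and -0.64 on day 2 and -2.39, -1.27 and -1.37 on day 4 (-1.43 ± 0.37, limma adjusted p = 0.143). Tgfb1 overlapped between the days (-0.60 ± 0.38, limma adjusted p = 0.519). Inhba, the activin A subunit, read 0.42, 0.11 and -0.26, then -3.31, 0.89 and 0.88, so that replicate 1 of day 4 stood at the level of day 0 and the others above day 2 (-0.60 ± 0.98, limma adjusted p = 0.837). For the heme oxygenase Hmox1 replicate 1 of day 4 was again at the level of day 0 and the others lay within day 2: -0.09, 0.55 and -0.54, then -2.52, 0.38 and 0.19 (-0.62 ± 0.72, limma adjusted p = 0.756). Over the list of TGF-beta, activin and BMP signalling, 24 of 25 genes were measured, none passed, and the median was -0.03; the 17 of 20 growth factor genes measured had a median of 0.27, with none past the threshold and a sign that turned under some settings.

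Podocyte genes differed little. Of 27 markers 25 were measured, none passed and the median was -0.10. Nphs1, or nephrin, read 4.81, 4.64 and 4.74 on day 2 and 4.65, 4.79 and 4.32 on day 4 (-0.15 ± 0.21, limma adjusted p = 0.809), and Synpo, the actin-binding synaptopodin, changed by 0.26 ± 0.33 (limma adjusted p = 0.773). Both overlapped. The transcription factor Lmx1b did not: 1.15, 0.42 and 0.41, then -0.33, -0.22 and -0.42 (-0.98 ± 0.24, limma adjusted p = 0.124), and day 0 was higher still, 1.39 to 1.90. Actn4, an actin cross-linker, lay higher on day 4 (0.54 ± 0.17, limma adjusted p = 0.204).

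Metabolic lists showed small changes with less spread. All 37 genes of oxidative phosphorylation measured had a positive change, 14 with an unadjusted p under 0.05, none passed, and the median was 0.38; in 15 the days did not overlap, against 15.0% of all genes on that side. Ndufa8, a subunit of complex I, read 2.85, 3.17 and 3.17 on day 2 and 3.67, 3.69 and 3.75 on day 4 (0.64 ± 0.17, limma adjusted p = 0.155). The median was 0.21 with scaling to the reference genes and 0.25 without replicate 1 of day 4. All 19 cholesterol synthesis genes were measured, 17 had a positive change, and none passed. In 9 the days did not overlap and day 4 lay higher (15.0% of all genes). The median was 0.40 (0.23 with scaling to the reference genes and 0.20 without replicate 1 of day 4). The reference genes had a median of 0.12 themselves.

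Fatty acid oxidation was not shifted as a list (median -0.02 over 23 of 23 genes, none past the threshold, sign dependent on the setting), and genes tied to its control are given by their values. Ppara, the nuclear receptor that drives these genes, read -1.83, -1.26 and -0.50 on day 2 and -2.54, -3.24 and -2.61 on day 4 (-1.60 ± 0.37, limma adjusted p = 0.11). Pdk4, the kinase that shuts off pyruvate oxidation, read 2.82, 3.46 and 4.21, then 0.80, 1.47 and 0.83 (-2.47 ± 0.89, limma adjusted p = 0.247). Angptl4, an inhibitor of lipoprotein lipase, read 0.22, -0.02 and 0.71, then -2.63, -2.23 and -2.26 (-2.68 ± 0.69, limma adjusted p = 0.144). In these 3 genes replicate 1 of day 4 lay with the other arrays of its day.

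The remaining lists had medians between -0.33 and 0.26 with no gene past the threshold. Immediate early genes had a median of -0.33, which within slide 4 was 0.09. Fos read -0.08, -0.01 and 0.64 on day 2 and 0.99, -2.18 and -2.64 on day 4, so replicate 1 was above and the others below (-1.46 ± 0.86, limma adjusted p = 0.483). The glucocorticoid list had a median of -0.24, p53 targets 0.10, ER stress genes 0.10, heme and oxidative stress genes 0.14, prostaglandin and leukotriene genes -0.00, clock genes 0.03, parietal epithelium 0.24 and glycolysis 0.26. Both tubule lists were near 0, 0.12 for the proximal tubule and 0.09 for the later nephron, and turned sign under some settings. Krt18, a keratin of parietal and tubular epithelium, lay higher on day 4 (1.93, 2.71 and 2.92, then 4.60, 3.41 and 3.84; 1.43 ± 0.35, limma adjusted p = 0.122).

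The step from day 3 to day 5 has the same length, lies within the other scan day and shares no array with the step from day 2 to day 4. The difference between the steps was tested for every gene, and 0 of 23194 passed in limma; the lowest adjusted p was 0.238, and 1293 genes had an unadjusted p under 0.05. The 23 genes were chosen by the first step, so their second step is given as values. Of the 9 that fell, 8 were well above background on some array of day 3 or 5, and these 8 had a negative change from day 3 to day 5; of all genes with a negative first step, 52.7% did. Of the 14 that rose, 12 were well above background there, and these 12 had a positive change, beside 65.4% of all genes with a positive first step. The shares of all genes carry no such background limit. Without it, all 9 that fell and 12 of the 14 that rose kept their sign. Cdh11 changed by 1.23 ± 0.21 and then 1.19 ± 0.21, Cacnb2 by -1.04 ± 0.18 and -0.76 ± 0.18, and Lyve1 by -1.86 ± 0.26 and -1.06 ± 0.26. Or7g89, Sel1l2 and BQ208080 were well above background on no array of days 3 and 5, so their second step has no measured size. The difference between steps was -1.10 ± 0.25 for Syk, which did not pass over all genes.

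Lists can be set side by side in the same way, with no test. The macrophage median was -1.16 from day 2 to day 4 and -1.98 from day 3 to day 5, the mitosis median -0.98 and -2.02, and the platelet median -1.79 and -1.31. The mesangial median was 1.22 and 0.44. The contractile median was 0.67 in the first step and -0.62 in the second, and the matrix median 0.76 and -0.21. The arrays of day 5 were not alike either. Relative to day 0, the contractile list averaged 0.16, 0.47 and 1.79 on replicates 2, 4 and 5 of day 5, and the matrix list 0.24, 0.42 and 1.73. On day 3 these lists averaged 1.16 to 1.60 and 0.87 to 0.98. Macrophage genes averaged 0.35, 0.07 and 2.52 on day 5, and mitosis genes -0.63, 0.47 and 2.49.

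**Figure D4:**
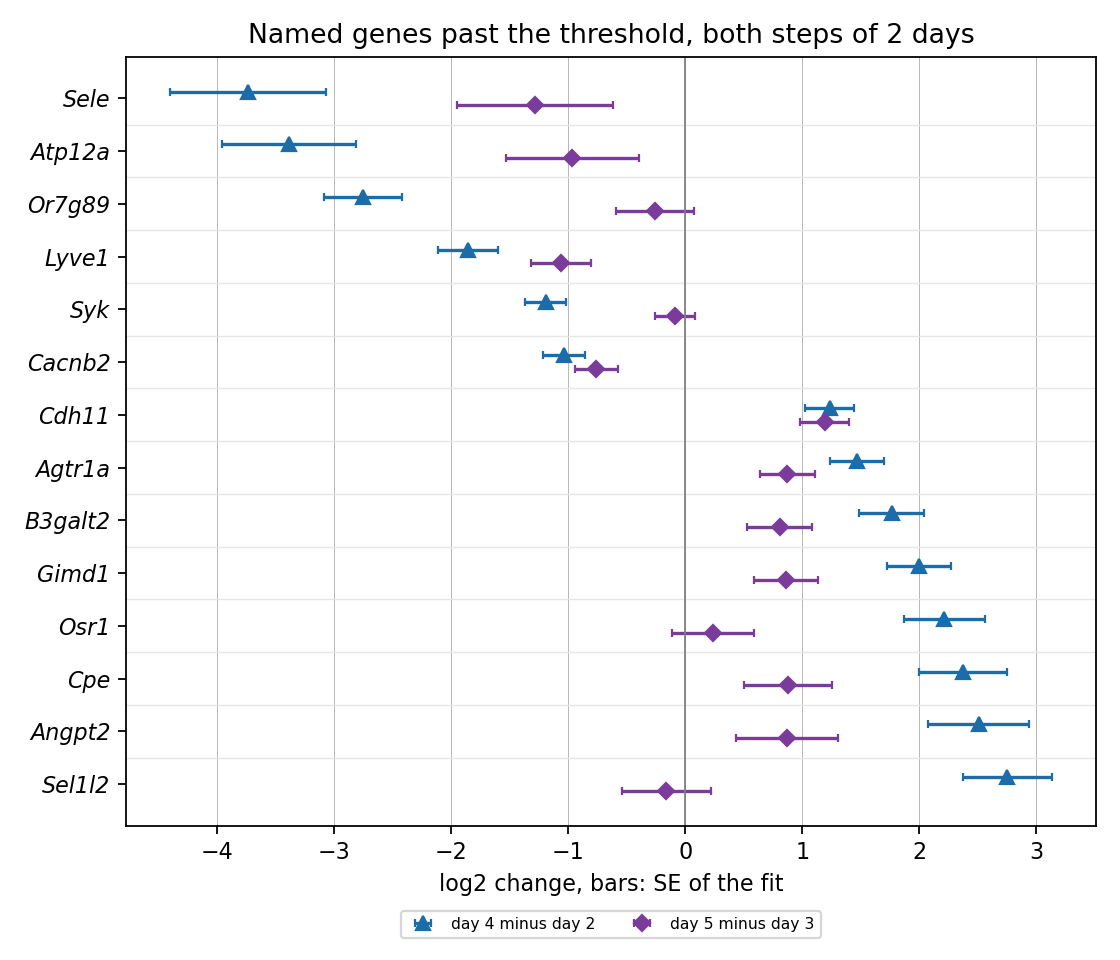
Log2 change (x axis, bars are the SE of the fit) from day 2 to day 4 (triangles) and from day 3 to day 5 (diamonds) of the 14 genes with a current symbol past the threshold in the first step. The Cdh11 steps nearly coincide at 1.23 and 1.19, and the second step of Sel1l2 and Or7g89 is between signals not well above background.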

How the data were processed

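RNA of rat glomeruli was labelled with Cy3 and hybridised to single-colour Agilent arrays. Per the file headers, the deposited intensity values were made with Agilent Feature Extraction 10.7.3.1, with spatial and multiplicative detrending on and local background correction off; the headers name build rn4. The deposited table of log2 values ranks the probes of each array as these intensities do. Its columns share their quantiles within days 0, 2 and 4 and within days 1, 3 and 5, so its scale is read as log2, its further steps have no record in the sources read here, and it served as an alternative.

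Each array's 75th percentile, taken without control spots, was subtracted from its log2 intensity; flagged spots (80 to 142 an array) were left out. A probe entered if well above background on all 3 arrays of some day (27833 of 41012). Names were updated through the RefSeq gene table; 21743 probes matched. A gene took its probe with the highest mean, which left 23194 genes and transcripts, 12265 with a current symbol; 56 values were missing. The 6 days were fitted together with limma 3.58.1 in R 4.3.3, and the fit was tested on simulated data. Adjusted p is Benjamini-Hochberg over all genes, with a threshold of 0.05, and errors are standard errors of the fit with n = 3 arrays a day.

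Named were the 12 genes with a current symbol and the largest change in each direction that passed, did not overlap and were well above background on the higher day. Places left were filled by the smallest unadjusted p. Up to 4 members of each of 36 lists with the smallest p and a fixed set of marker genes were added, of which the text gives a selection. The members and lists were chosen with earlier results of these data known. A result for 1 list member is left out here.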

Additional observations from a re-analysis of the deposited data

How the results depend on the processing

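Of 36 list medians, 19 kept their sign under all 22 other settings and 17 did not. The number of genes past the threshold, 23, was within 1.5 times under 10 of 22 settings: quantile normalization (17 of the 23 shared), scaling to the median (19), days 0, 2 and 4 alone (7), no filter (13), the mean of a gene's probes (22), slide as a fixed (4) or random block (23), a variance trend (19), and without day 2 replicate 4 (15) or day 4 replicate 1 (16). It was 76 with scaling to reference genes and 0 with normexp (655 at an unadjusted p under 0.05). The authors' table, fitted on days 0, 2 and 4 alone, gave 6. The 6 arrays alone gave 2, and probes well above background on all arrays compared gave 5. Leaving out 1 array gave 0 to 26. The replicate block gave 8 calls, and the difference between the steps 0. Same-numbered arrays of days 2 and 4 correlated in their deviations at 0.1306 and 0.1541, below the 0.3095 of day 2 replicate 4 with day 4 replicate 1; the labels tie the number to no animal.
Array quality weights gave 5195 calls, and 3758 for the difference between the steps, but limma's estimate of the weights stopped before it converged. After that count was seen, gene-by-gene weights were added, chosen after seeing the data; they gave 2367 and 1392. With all weights equal the difference between the steps gave 0 calls, 6 with slide as a fixed block, and 0 to 5 when 1 array was left out. The count within slide 4 is that of the fixed slide block, 22, with 1 array of day 4 assumed to vary like the others. Signal over background limits the genes given as a bound.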
